A study of Mus musculus with 4 samples.

Results

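Glucose enters a monocyte through facilitative transporters and is broken down to pyruvate by the enzymes of glycolysis, and lactate dehydrogenase then turns pyruvate into lactate. The pathway yields ATP without oxygen and feeds side branches such as the pentose phosphate pathway, and in myeloid cells it is known as a main source of energy and as a target of the hypoxia-inducible factor HIF-1. The 10 genes described here were taken by symbol from the deposited expression table. They are *Slc2a1* (the transporter GLUT1), *Hk2* and *Hk3* (hexokinases, which trap glucose as its phosphate), *Gpi1* (glucose-phosphate isomerase), *Pfkl* (the liver-type phosphofructokinase, a control point of the pathway), *Aldoa* (aldolase, which splits the sugar), *Gapdh* and *Pgk1* (the dehydrogenase and kinase of the middle steps), *Pkm* (pyruvate kinase, the last step) and *Ldha* (lactate dehydrogenase A). All 10 were found, each in a single row, among 23995 gene symbols, and all 10 were among the 10240 expressed genes, those that reached an FPKM of 1 in any of the 4 libraries. FPKM counts sequenced fragments relative to the length of a transcript and to the size of its library, so levels of different genes can be set side by side within a library.

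The study asked what the transcription factor RBP-J, the nuclear effector of Notch signalling, does in blood monocytes. Total RNA of sorted blood Ly6Chi monocytes (classical, inflammatory) and Ly6Clo monocytes (patrolling) was sequenced from *Rbpj* fl/fl *Lyz2* cre/cre mice, called RBP-J-deficient, and from *Rbpj* +/+ *Lyz2* cre/cre mice, called control and titled WT in the labels. Both genotypes carry Cre at the *Lyz2* locus, which is active in myeloid cells in general and not in monocytes alone, and the mice were matched for age and sex, with no treatment named in the labels. Each of the 4 groups holds 1 library, so no difference below has a replicate check, no p-value was computed, and values describe these libraries. How many mice gave each library and the depth of each library are not given in the sources used here.

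*Rbpj* itself was at an FPKM of 8.30 in the control and 2.43 in the deficient Ly6Clo library, and at 14.4 and 2.85 in Ly6Chi monocytes, so both deficient libraries were lower. The summed FPKM of 7 Ly6Chi markers was 113 in the control and 659 in the deficient Ly6Clo library, against 4830 and 4086 in Ly6Chi monocytes. Most of the 659 came from *Ccr2*, at 59.2 in control and 473.7 in deficient Ly6Clo monocytes, and the other markers of the list were higher there too. The study also reports more CCR2 in deficient Ly6Clo monocytes by qPCR and flow cytometry. The sum of 7 Ly6Clo markers was 2353 and 1670 in Ly6Clo monocytes against 509 and 746 in Ly6Chi monocytes, and in the deficient Ly6Clo library most of it came from *Cd36* at an FPKM of 944.7 and *Treml4* at 513.0. Not every marker followed the labelled subset there. *Nr4a1* was at 65.6, against 213.9 and 182.5 in the control and deficient Ly6Chi libraries, and *Ace* at 17.7 against 26.4 and 24.7. In control Ly6Clo monocytes *Nr4a1* was at 618.2, *Ace* at 108.7 and *Itgax* at 33.7, the last against 3.10 in the deficient library. Only *Cd36* of the 7 was higher in deficient Ly6Clo monocytes, with 425.6 in the control. The study reports similar *Nr4a1* in Ly6Clo monocytes of both genotypes by flow cytometry and qPCR, unlike these libraries. Of 6 erythroid markers, 5 reached an FPKM of 1 in every library, and their sum was 2508 in control Ly6Clo monocytes and between 1086 and 1330 in the others. *Hba-a2*, whose row shares its locus with a joint row of *Hba-a1* and *Hba-a2*, was at 1171 in control and 89.4 in deficient Ly6Clo monocytes. *Hbb-bs* alone was higher in the deficient Ly6Clo library, at 54.6 against 11.1. Of 8 neutrophil markers, 3 to 5 reached an FPKM of 1, and their sum was 161 to 236 in Ly6Clo and 1041 to 1323 in Ly6Chi monocytes. Most of the sum came from *S100a8* in every library. In control and deficient order it was at 197.2 and 126.1 in Ly6Clo and at 1085 and 861.4 in Ly6Chi monocytes. Among the granule genes, *Mpo* was at 0 throughout, and *Elane* was at 1.13 in control Ly6Chi monocytes. *Ngp* and *Camp* were at 0 in control and at 4.87 and 5.52 in deficient Ly6Chi monocytes. Platelet markers summed to 127 to 131 in Ly6Clo and 314 to 383 in Ly6Chi monocytes, B cell markers to between 25.0 and 101, and T and NK cell markers to at most 3.33. The part of other cells in the glycolysis values was not tested, and fewer cells of a type and less RNA per cell cannot be told apart in such libraries.

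The sequences before the transcription starts of 4 genes are shown because these genes, with *Pkm*, lay farthest from equal levels in the genotype comparison, 2 of them lower (*Slc2a1* and *Pfkl*) and 2 higher (*Hk2* and *Pgk1*) in RBP-J-deficient Ly6Clo monocytes. The window of *Pkm* lies mostly in an annotated exon and is left out. They are RefSeq windows of up to 250 bases on GRCm38.p6, 5′ to 3′ on the gene's strand, without bases that GENCODE places in an exon. Capitals mark ACGTG and GCGTG, the core letters of sites bound by hypoxia-inducible factors, and TGGGAA, the core letters of sites bound by RBP-J, on either strand. The windows lie at chr4:119108495-119108710 (plus strand, *Slc2a1*), chr10:78009808-78010004 (minus strand, *Pfkl*), chr6:82774455-82774704 (minus strand, *Hk2*) and chrX:106186850-106187099 (plus strand, *Pgk1*).
Slc2a1: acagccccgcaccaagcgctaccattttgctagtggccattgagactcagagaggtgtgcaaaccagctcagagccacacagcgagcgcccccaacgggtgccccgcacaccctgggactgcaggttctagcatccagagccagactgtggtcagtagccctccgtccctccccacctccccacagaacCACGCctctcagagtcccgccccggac
Pfkl: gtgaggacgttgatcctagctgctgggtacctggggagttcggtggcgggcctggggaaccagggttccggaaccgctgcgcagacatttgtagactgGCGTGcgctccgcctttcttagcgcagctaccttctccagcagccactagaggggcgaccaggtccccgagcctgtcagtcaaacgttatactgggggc
Hk2: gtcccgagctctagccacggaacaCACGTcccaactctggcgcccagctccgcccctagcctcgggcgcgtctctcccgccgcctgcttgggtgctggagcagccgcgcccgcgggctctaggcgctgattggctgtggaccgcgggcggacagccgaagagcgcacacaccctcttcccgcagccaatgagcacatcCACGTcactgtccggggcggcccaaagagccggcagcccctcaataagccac
Pgk1: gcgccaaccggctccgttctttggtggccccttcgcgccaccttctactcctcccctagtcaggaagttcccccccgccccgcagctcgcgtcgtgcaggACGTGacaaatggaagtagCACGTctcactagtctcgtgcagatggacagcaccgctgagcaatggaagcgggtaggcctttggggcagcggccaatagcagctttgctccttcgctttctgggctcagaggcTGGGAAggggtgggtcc

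In the full windows of 250 bases, which all 10 genes matched, ACGTG stood in 5 genes (*Slc2a1*, *Hk2*, *Hk3*, *Pgk1* and *Ldha*) and in 16.5% of all 27025 RefSeq promoters, or 22.7% of the 7754 promoters of expressed genes. GCGTG stood in 3 genes (*Slc2a1*, *Pfkl* and *Gapdh*), against 28.3% of all promoters and 45.9% of those of expressed genes. Together 7 of the 10 genes held either, against 57.4% of the promoters of expressed genes. TGGGAA stood in *Gapdh* and *Pgk1*, 2 of 10 genes, against 20% of the promoters of expressed genes, and the longer GTGGGAA in none of the 10, against 5.22%. *Slc2a1* and *Pfkl* on the lower side and *Hk2* and *Pgk1* on the higher side thus all held a hypoxia core, and *Pkm* held neither. The ACGTG of *Slc2a1* overlaps the part of its window that is not printed, and the stretch of *Pfkl* lies inside a longer GENCODE transcript of that gene. These are matches of letters and not binding sites.

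The levels of the 10 genes spanned a wide range within each library. In control Ly6Clo monocytes *Aldoa* was the most abundant at an FPKM of 501.2, followed by *Pkm* at 452.9, *Ldha* at 262.5, *Gapdh* at 165.4, *Pgk1* at 99.6 and *Gpi1* at 80.7. The enzymes and the transporter of the first steps were far lower, with *Pfkl* at 20.7, *Slc2a1* at 14.6, *Hk3* at 13.2 and *Hk2* at 12.7. The last 3 lay within 2 FPKM of each other, and with 1 library their order has no error. The summed FPKM of the 10 genes was 1623 in the control and 1160 in the deficient Ly6Clo library, and 1805 and 1449 in Ly6Chi monocytes, so the sum was lower in the deficient library of both subsets. Without *Pkm* the sums were 1170 and 1000 in Ly6Clo and 1131 and 1023 in Ly6Chi monocytes.

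**Figure D1:**
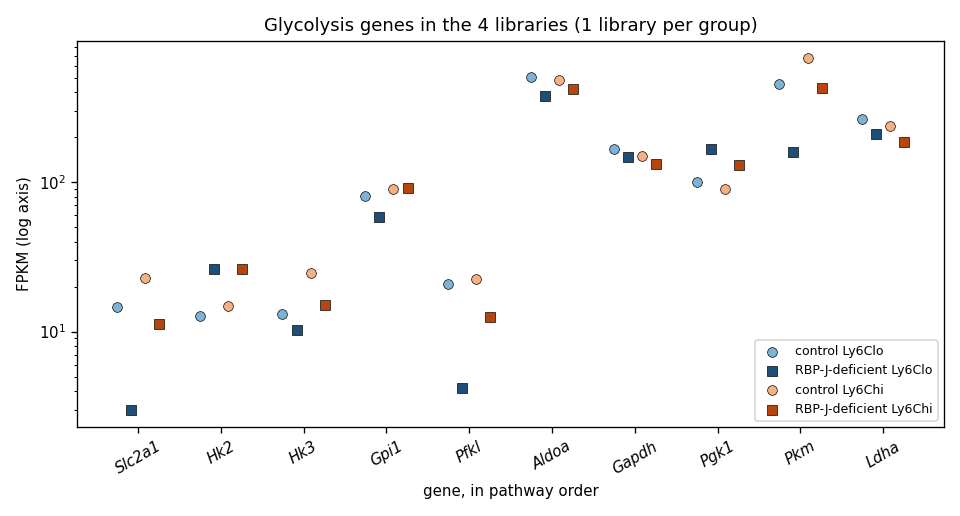
FPKM of the 10 glycolysis genes, on a log axis, with 1 point for each of the 4 libraries and the genes in pathway order. *Slc2a1*, *Pfkl* and *Pkm* have their lowest point in RBP-J-deficient Ly6Clo monocytes, while *Hk2* and *Pgk1* have both deficient libraries above both control libraries.

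*Slc2a1*, the transporter at the entry of the pathway, varied most over the 4 libraries. Its FPKM was 14.6 in control Ly6Clo, 3.01 in RBP-J-deficient Ly6Clo, 22.9 in control Ly6Chi and 11.3 in RBP-J-deficient Ly6Chi monocytes. Each deficient library was below both controls, and the highest level was 7.60 times the lowest. The log2 ratio of deficient over control (FPKM + 1) was -1.96 in Ly6Clo and -0.95 in Ly6Chi monocytes, a 3.88-fold and a 1.94-fold lower level. In Ly6Clo monocytes 1.56% of expressed genes had a lower ratio. Its low level makes this ratio depend on the added 1, and with 5 added in its place it was -1.29.

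The hexokinases differed in direction. *Hk2* had an FPKM of 12.7 in the control and 26.4 in the deficient Ly6Clo library, and of 14.8 and 26.4 in Ly6Chi monocytes. Both deficient libraries were alike and above both controls, with log2 ratios of 1.0 in Ly6Clo and 0.80 in Ly6Chi monocytes. The first of these sat at the 2-fold line, and 91.1% of expressed genes had a lower ratio. *Hk3*, a hexokinase known from myeloid cells, had an FPKM of 13.2 in the control and 10.2 in the deficient Ly6Clo library, and of 24.8 and 15.0 in Ly6Chi monocytes. Its log2 ratios were -0.34 and -0.69, on the lower side in both subsets. The ratio of *Hk2* to *Hk3* FPKM went from 0.961 in control to 2.59 in deficient Ly6Clo monocytes and from 0.595 to 1.76 in Ly6Chi monocytes, so *Hk2* was the more abundant of the pair in the deficient libraries only. The deposited locus of *Hk3* (chromosome 13, 54949431 to 55021385) reaches beyond the GENCODE gene, which starts at 55005985, and takes in *Unc5a* on the opposite strand, so that reads of *Unc5a* could add to the *Hk3* value.

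*Gpi1*, the next enzyme, had its highest level at 1.58 times its lowest. Its FPKM was 80.7 in the control and 58.2 in the deficient Ly6Clo library, and 89.9 and 91.7 in Ly6Chi monocytes, with log2 ratios of -0.47 and 0.03. *Pfkl* showed the lowest genotype ratio of the 10 genes. It had an FPKM of 20.7 in control Ly6Clo, 4.17 in RBP-J-deficient Ly6Clo, 22.6 in control Ly6Chi and 12.4 in RBP-J-deficient Ly6Chi monocytes. The controls were close to each other and both deficient libraries lower, with log2 ratios of -2.07 in Ly6Clo monocytes (4.20-fold lower, with 1.26% of expressed genes lower still) and -0.81 in Ly6Chi monocytes.

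*Aldoa*, *Gapdh* and *Ldha*, abundant enzymes, differed least. *Aldoa* had an FPKM of 501.2 and 374.8 in control and RBP-J-deficient Ly6Clo monocytes and of 481.5 and 418.6 in Ly6Chi monocytes. *Gapdh* had 165.4 and 146.3 in Ly6Clo and 148.3 and 132.5 in Ly6Chi monocytes. *Ldha* had 262.5 and 210.9 in Ly6Clo and 237.0 and 185.5 in Ly6Chi monocytes. All 3 were lower in both deficient libraries as deposited (with the GC trend below subtracted, *Gapdh* came to 0.20 in Ly6Clo and 0.02 in Ly6Chi monocytes), but the highest level was at most 1.41 times the lowest, and for *Gapdh*, with 1.25 times, the spread was the smallest of the 10 genes. The log2 ratios in Ly6Clo and Ly6Chi monocytes were -0.42 and -0.20 for *Aldoa*, -0.18 and -0.16 for *Gapdh*, and -0.31 and -0.35 for *Ldha*.

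*Pgk1*, the first step of the pathway that yields ATP, was the other gene on the higher side. Its FPKM was 99.6 in the control and 166.5 in the deficient Ly6Clo library, and 89.7 and 129.3 in Ly6Chi monocytes. Both deficient libraries were above both controls, with log2 ratios of 0.74 (1.67-fold) in Ly6Clo and 0.52 in Ly6Chi monocytes. *Gapdh* and *Pgk1* catalyse successive steps. The ratio of their FPKM was 1.66 in control and 0.878 in deficient Ly6Clo monocytes, and 1.65 and 1.02 in Ly6Chi monocytes.

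*Pkm*, whose splice forms are not told apart in gene-level values, was the gene with the largest difference in FPKM. It stood at 452.9 in the control and 159.5 in the deficient Ly6Clo library, and at 673.6 and 425.9 in Ly6Chi monocytes. Both deficient libraries were below both controls, with log2 ratios of -1.50 (2.83-fold lower) and -0.66. The ratio of *Pkm* to *Ldha* FPKM was 1.73 in the control and 0.756 in the deficient Ly6Clo library, the sole library where *Ldha* was above *Pkm*, and 2.84 and 2.30 in Ly6Chi monocytes.

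Counted over the genotype comparison in Ly6Clo monocytes, 3 of the 10 genes (*Slc2a1*, *Pfkl* and *Pkm*) were at least 2-fold lower in RBP-J-deficient cells, where 11.1% of all expressed genes were, and 1 (*Hk2*, at the threshold) was at least 2-fold higher, where 8.97% of all were. With 10 genes, these shares correspond to about 1 gene in each direction. Between the same libraries the summed FPKM of the Ly6Chi markers was 113 and 659, in control and deficient order, with most of the 659 from *Ccr2*. That of the erythroid markers, which did not all go the same way, was 2508 and 1088. The part of such cells in the ratios was not tested. In Ly6Chi monocytes none of the 10 passed 2-fold, against 4.56% of expressed genes lower and 2.65% higher. The median log2 ratio of the 10 genes was -0.38 in Ly6Clo and -0.28 in Ly6Chi monocytes, beside medians of 0.02 and 0.00 over all expressed genes. As deposited, 8 of the 10 had a ratio below 0 in Ly6Clo monocytes and 7 in Ly6Chi monocytes. Of all expressed genes 48.2% and 49.3% were below 0. With the GC trend below subtracted, 6 of the 10 were below 0 in each subset. The share of all expressed genes below 0 after that subtraction is not given here. The fold thresholds given in the study's methods, 5.7 and 0.2 on (FPKM + 1), were passed by none of the 10 in either subset, against 0.273% of expressed genes higher and 0.674% lower in Ly6Clo monocytes and 0.156% in each direction in Ly6Chi monocytes. At 1.5-fold, 3 of the 10 genes were lower and 2 higher in Ly6Clo monocytes, where 22% and 23% of expressed genes were, and 4 lower and 1 higher in Ly6Chi monocytes, against 14.3% and 10.9%.

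**Figure D2:**
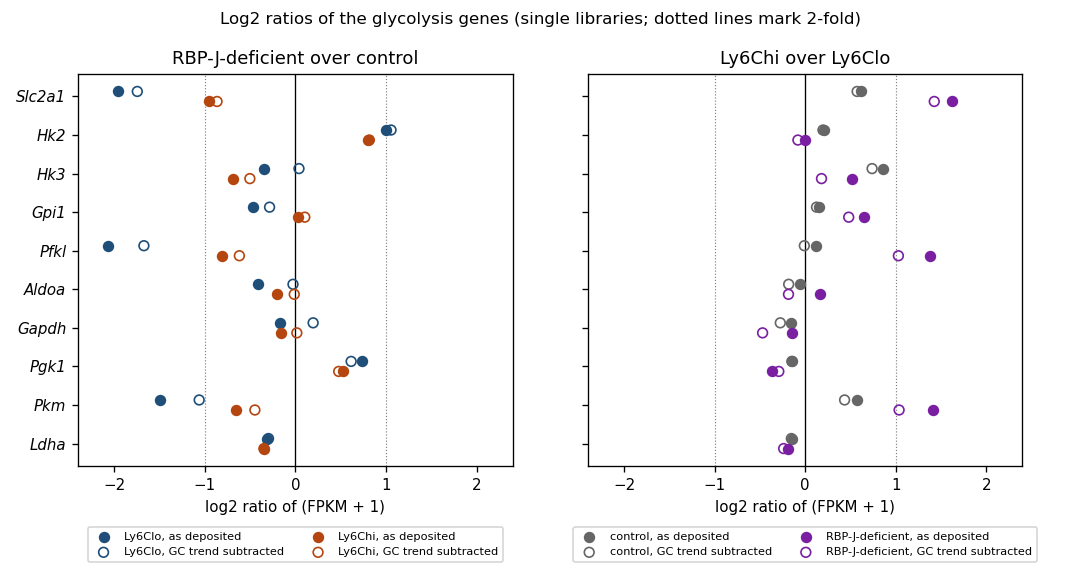
Log2 ratios of (FPKM + 1) of the 10 genes, RBP-J-deficient over control in each subset (left) and Ly6Chi over Ly6Clo in each genotype (right), from single libraries. Filled points are the ratios from the deposited values, open points the ratios after the trend with GC content was subtracted, and dotted lines mark 2-fold. *Slc2a1*, *Pfkl* and *Pkm* lie left of -1 in Ly6Clo monocytes on the left and right of 1 in the deficient genotype on the right.

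The comparison of the subsets uses the same 4 libraries, so it is another view of the same values. In control mice none of the 10 genes passed 2-fold, against 7.75% of expressed genes higher and 5.21% lower in Ly6Chi monocytes. The log2 ratios of Ly6Chi over Ly6Clo ran from -0.16 for *Gapdh* to 0.86 for *Hk3*, with 0.62 for *Slc2a1*, 0.57 for *Pkm* and 0.12 for *Pfkl*. In RBP-J-deficient mice the ratios were 1.62 for *Slc2a1*, 1.38 for *Pfkl* and 1.41 for *Pkm*, the 3 genes of 10 at least 2-fold higher in Ly6Chi monocytes, where 10.6% of expressed genes were. None was 2-fold lower, against 8.41%. At 1.5-fold the count higher in Ly6Chi monocytes was 2 of 10 in control mice, against 16.2% of expressed genes, and 4 of 10 in deficient mice, against 21.4%, and at the thresholds of the methods it was 0 in deficient mice, against 0.596%. *Pgk1*, at -0.36, had the lowest ratio in this genotype. The deficient Ly6Clo library, which enters both the genotype ratio in Ly6Clo monocytes and the subset ratio in deficient mice, was the lowest for *Slc2a1*, *Hk3*, *Gpi1*, *Pfkl*, *Aldoa* and *Pkm*. The share of all expressed genes that were lowest there is not given here, so this is no trait of these genes.

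The genotype ratio minus that in the other subset, Ly6Clo minus Ly6Chi, was -1.26 for *Pfkl*, -1.0 for *Slc2a1* and -0.84 for *Pkm*, and between -0.49 (*Gpi1*) and 0.34 (*Hk3*) for the other 7 genes. The 3 genes thus had the same sign in both subsets and a lower ratio in Ly6Clo monocytes. These differences of single libraries were not tested.

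The ratio of genotypes went with the base composition of transcripts across the transcriptome, and the 10 genes were not typical in composition. Over 6104 expressed genes whose FPKM averaged 5 or more, the log2 ratio in Ly6Clo monocytes had a Spearman correlation of -0.37 with the GC content of the longest protein-coding transcript, as a description across genes, which share the same libraries and are not independent replicates. In Ly6Chi monocytes it was -0.29. The median GC content was 55.3% for the 10 genes and 49.4% for the 6104. *Pkm* (57.7%) and *Pfkl* (57.1%) were the richest in GC, and *Pgk1* (49.7%), *Ldha* (51.5%) and *Hk2* (51.9%) the poorest. After a smooth trend was subtracted, the log2 ratios in Ly6Clo monocytes were -1.75 for *Slc2a1*, -1.67 for *Pfkl*, -1.06 for *Pkm*, 1.06 for *Hk2* and 0.61 for *Pgk1*. The same 4 genes were past 2-fold, against 9.79% of expressed genes lower and 8.05% higher. The small ratios of *Hk3*, *Aldoa* and *Gapdh* came to 0.04, -0.03 and 0.20. The median of the 10 genes became -0.16, beside -0.05 over all expressed genes. In Ly6Chi monocytes the median became -0.18, beside -0.03. The part of base composition in the ratios as measured was not tested beyond this subtraction.

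**Figure D3:**
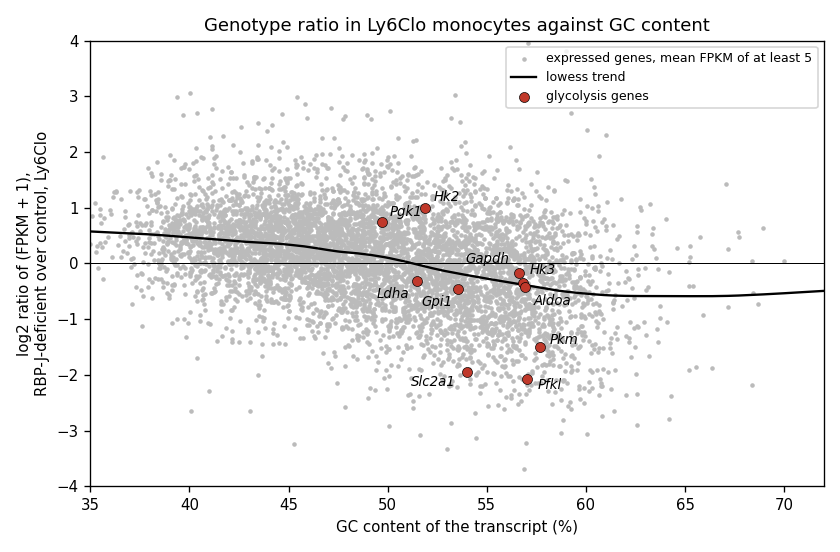
Log2 ratio of deficient over control (FPKM + 1) in Ly6Clo monocytes against the GC content of the longest protein-coding transcript, for 6104 expressed genes (grey; 18 lie outside the axes), their lowess trend (line) and the 10 glycolysis genes (red). *Slc2a1*, *Pfkl* and *Pkm* lie below the trend and *Hk2* and *Pgk1* above it, while *Hk3*, *Aldoa* and *Gapdh* lie near it.

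Most steps of the pathway have several isoforms, and FPKM allows their shares to be compared within a library. Of the summed FPKM of *Hk1*, *Hk2* and *Hk3*, *Hk2* held 42.7% in control and 69.4% in RBP-J-deficient Ly6Clo monocytes, and 30.4% and 56.1% in Ly6Chi monocytes. *Hk1*, the widely expressed hexokinase, held 12.9% and 3.77% in Ly6Clo and 18.4% and 12.0% in Ly6Chi monocytes. The share of *Hk2* was thus higher and those of *Hk1* and *Hk3* lower in the deficient library of each subset. Among the phosphofructokinases, *Pfkl* held 34.1% in control and 9.91% in deficient Ly6Clo monocytes, and 36.2% and 30.7% in Ly6Chi monocytes, and the platelet-type *Pfkp* held 65.5% and 89.1% in Ly6Clo and 60.1% and 65.0% in Ly6Chi monocytes. *Pfkp* itself was at an FPKM of 39.9 and 37.5 in Ly6Clo and 37.5 and 26.3 in Ly6Chi monocytes, so the share of *Pfkl* in Ly6Clo monocytes differed with *Pfkl* itself.

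The share of *Ldha*, the lactate dehydrogenase subunit of glycolytic tissues, against *Ldhb*, that of the heart, differed by subset more than by genotype. *Ldha* held 93.6% of their sum in both Ly6Clo libraries, 70.0% in control Ly6Chi and 74.8% in deficient Ly6Chi monocytes. *Ldhb* had an FPKM of 18.0 and 14.5 in Ly6Clo monocytes and of 101.5 and 62.6 in Ly6Chi monocytes. Among the glucose transporters, *Slc2a1* held 16.0% and 12.5% in Ly6Clo and 28.9% and 21.9% in Ly6Chi monocytes, and *Slc2a6*, a transporter of the same family known from lysosomes of macrophages, held 82.0%, 83.8%, 65.5% and 76.9% in the same order.

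**Figure D4:**
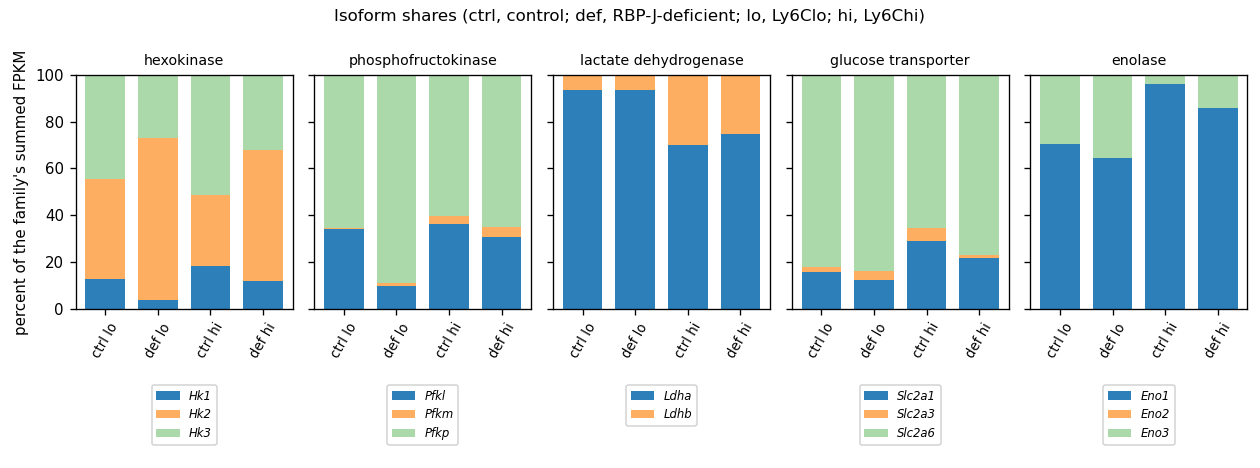
Percent of the summed FPKM of each isoform family held by each gene, as stacked bars for the 4 libraries (control and RBP-J-deficient, Ly6Clo and Ly6Chi). *Hk2* holds more and *Pfkl* less of its family in the deficient library of both subsets, and *Ldhb* appears mainly in Ly6Chi monocytes.

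A list of 39 other genes of glucose metabolism was set beside the 10, and 30 of them were expressed. In Ly6Clo monocytes 25 of the 30 had a ratio below 0 in RBP-J-deficient cells, 5 were at least 2-fold lower and none 2-fold higher, with a median log2 ratio of -0.49. Of all expressed genes 48.2% were below 0, 11.1% 2-fold lower and 8.97% 2-fold higher, with a median of 0.02. The 5 were *Slc16a3* (the lactate exporter MCT4) at -2.34, *Pdk2* and *Pdk1* (kinases that shut pyruvate dehydrogenase) at -1.90 and -1.27, *Pfkfb4* (which makes the activator of phosphofructokinase) at -1.88 and *Slc2a6* at -1.85. *Slc16a3*, at an FPKM of 28.6 in the control and 4.86 in the deficient Ly6Clo library and of 22.6 and 9.63 in Ly6Chi monocytes, was lower in both. In Ly6Chi monocytes 23 of the 30 were below 0, with a median of -0.33, where 49.3% of all expressed genes were below 0 and their median was 0.00. There *Slc2a3*, *Slc16a3* and *Myc* were at least 2-fold lower, at -1.77, -1.15 and -1.86, and *Eno3*, the muscle-type enolase, 2-fold higher at 1.89, beside 4.56% and 2.65% of all expressed genes. With the GC trend subtracted *Slc16a3* came to -0.97 there, short of 2-fold. *Slc2a3* and *Myc* were low genes, with a highest FPKM of 4.45 and 2.90. *Pdk2* and *Pdk1* were also low in Ly6Clo monocytes, at 3.75 and 4.57 in the control and 0.28 and 1.32 in the deficient library.

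Of the pentose phosphate branch, all 7 listed genes were expressed and 6 had ratios below 0 in both subsets, beside 48.2% and 49.3% of all expressed genes. The lowest was *Pgls* in Ly6Clo monocytes at -0.92, which became -0.33 with the GC trend subtracted. *Taldo1*, the most abundant of them, was at an FPKM of 784.7 and 475.7 in Ly6Clo and of 1077 and 930.6 in Ly6Chi monocytes. *Eno1*, deposited in a joint row with *Eno1b*, was at 1367 and 746.8 in Ly6Clo and at 1499 and 1298 in Ly6Chi monocytes, above all 10 genes. *Hif1a*, which encodes the hypoxia-inducible subunit, was at 17.7 and 14.9 in Ly6Clo and at 36.3 and 21.0 in Ly6Chi monocytes, with log2 ratios of -0.23 and -0.76, or -0.66 and -0.94 with the GC trend subtracted.

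**Figure D5:**
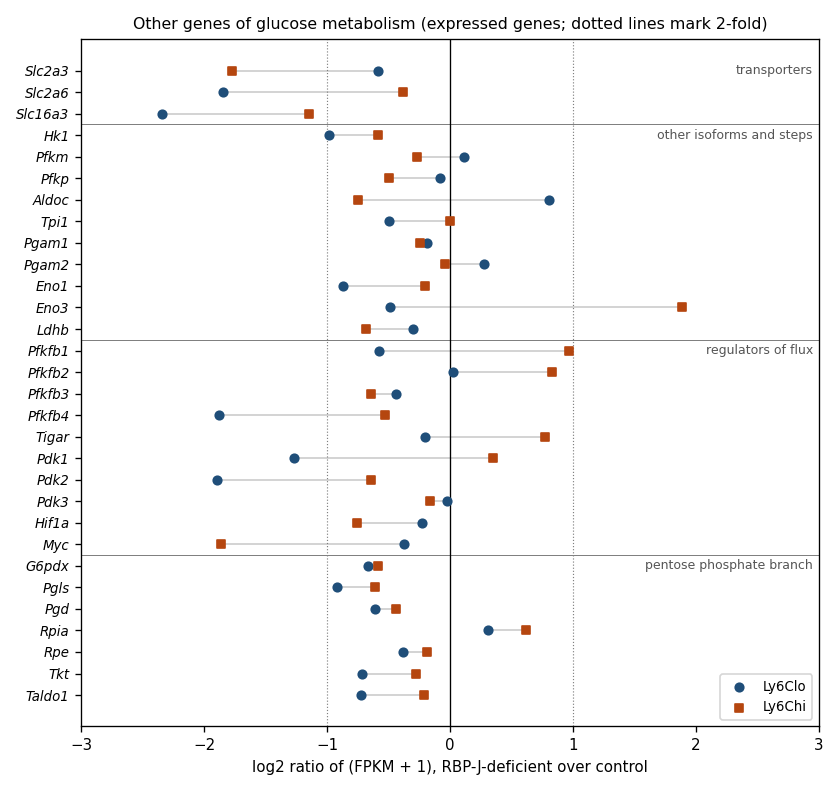
Log2 ratio of deficient over control (FPKM + 1) in Ly6Clo (circles) and Ly6Chi monocytes (squares) for the 30 expressed genes of the rest of the pathway, grouped by role, from single libraries. Most points lie left of 0, *Slc16a3* lies left of the 2-fold line in both subsets, and *Eno3* and *Pdk1* lie on different sides of 0 in the subsets.

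*Gapdh* served the study as the reference gene of its qPCR, and its level can be set beside other genes used that way. Of 11 such genes, the median log2 ratio of RBP-J-deficient over control was 0.15 in Ly6Clo and 0.12 in Ly6Chi monocytes, with a range from -1.29 to 0.91 in Ly6Clo monocytes, beside the -0.18 and -0.16 of *Gapdh*. A twelfth, *Actb*, was at an FPKM of 27260 in control Ly6Clo and 22795 in control Ly6Chi monocytes. It was listed at 0 in both deficient libraries and was left out of the median and range. The source of this 0 was not tested, and whether other values of the deficient libraries are affected is not known. *Gapdh* was also the gene with the most near-identical copies, with 81 other annotated genes (77 of them pseudogenes) that share at least 100 bases at 95% identity or more. *Gpi1* and *Ldha* had 5 such genes each, *Pgk1* 4, *Pkm* 2 and *Slc2a1* 1, and *Hk2*, *Hk3*, *Pfkl* and *Aldoa* none. How the counting treated reads that fit several copies is not given in the sources used here, so the values of these 6 genes are uncertain to that extent. The longest shared stretch was 1593 bases for *Pkm*, 1255 for *Pgk1*, 1249 for *Gapdh*, 1046 for *Gpi1*, 1000 for *Ldha* and 108 for *Slc2a1*.

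In the shape of their levels over the 4 libraries, on the log2(FPKM + 1) scale with each gene centred on its mean, *Slc2a1* and *Pfkl* were close (Euclidean distance 0.39), as were *Slc2a1* and *Pkm* (0.41) and *Gapdh* and *Ldha* (0.17). *Slc2a1* and *Hk2* were the farthest apart, at 2.64. The genes of 4827 candidates that lay nearest to the median shape of the 10 were *Sdha*, *Pqlc2*, *Mrps30*, *Dnajc11* and *Setd3*, at distances of 0.028 to 0.066, and *Sdha* had FPKM values of 82.6, 58.1, 82.1 and 76.8 in control and deficient Ly6Clo and control and deficient Ly6Chi monocytes. With 4 libraries many genes lie close to any shape.

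The genes lie on 7 chromosomes of GRCm38 as annotated by GENCODE, with *Slc2a1* at chromosome 4, 119108711 to 119137983, *Pfkl* at chromosome 10, 77986947 to 78010083, *Pkm* at chromosome 9, 59656368 to 59679375, *Hk2* at chromosome 6, 82725025 to 82774454, and *Pgk1* at chromosome X, 106187100 to 106203699. *Pfkl*, *Pgk1* and *Ldha* overlap no other annotated gene. *Aldoa* and *Gapdh* overlap the protein-coding genes *Fam57b* and *Iffo1* on the opposite strand, and *Slc2a1* and *Hk2* overlap antisense transcripts. *Gpi1* overlaps the non-coding *Gm26762* on the opposite strand. On the same strand, *Pkm* overlaps *Gm49759* and *Slc2a1* overlaps the microRNA gene *Mir1957a*, and strand would not separate these. Whether the counting used strand is not given in the sources used here, so reads of these partners cannot be told apart from those of the genes.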

How the data were processed

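Total RNA of sorted blood monocytes was sequenced in paired ends on an Illumina HiSeq2500. The authors deposited FPKM values for each gene and each of 6 pairs of 4 libraries in the layout of Cuffdiff, with 1 library per group. The submitters' processing notes name CASAVA 1.8, TopHat2 2.1.0, Cufflinks 2.2.1 and mm10, without settings for strand or for reads that fit several copies. The authors' deposited fold changes, p-values and q-values compare single libraries and were not used. Low FPKM values showed no steps of whole reads, so the depth is unknown and no interval is given, and FPKM of abundant genes rests on more reads than that of low ones.

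For each gene the log2 ratio of (FPKM + 1) was taken from these values, with 2-fold as the call. The methods' fold thresholds on the same scale were an alternative, and ratios of low genes are understated by the added 1. The share of the 10240 expressed genes past each threshold is given as background. A lowess trend (fraction 0.3, 3 iterations) of the ratio on GC content, fitted on 6104 genes, was subtracted as an alternative. GC content came from the longest protein-coding GENCODE M21 transcript and was found for 95.2% of expressed genes. Likeness between transcripts was searched with BLAST 2.17.0, and promoters came from RefSeq, with the outermost start where a gene had several. The procedure was tested on simulated data. Other alternatives were the pseudocount (0.1 and 5), rescaling to TPM, median centring, a filter on mean FPKM and no filter. Python 3.11.15, pandas 2.3.3 and statsmodels 0.14.6 were used.

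Genes named are the 10 glycolysis genes, the genes of a list of 39 others that passed 2-fold or complete a family, common reference genes, *Rbpj* and the 5 genes of nearest pattern. The other genes of the list are given as counts, and *Hif1a*, *Taldo1*, *Pgls*, *Eno1*, *Unc5a*, single markers and the overlapping genes were named after their values or positions were seen. The 10 genes and all lists were chosen with earlier results of these data known. The shares within the aldolase family are not reported here.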

Additional observations from a re-analysis of the deposited data

Results flagged for a closer look

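*Gpi1*, *Hk2* and *Aldoa* had ratios of opposite sign in the 2 settings of a contrast, each from single libraries, and none of these differences was tested. The share of all expressed genes with opposite signs is not given here. For *Gpi1*, glucose-phosphate isomerase, the genotype ratio was -0.47 in Ly6Clo and 0.03 in Ly6Chi monocytes, a difference of -0.49 on the log2 scale. For *Hk2* the ratio of Ly6Chi over Ly6Clo was 0.20 in control mice but -0.0011 in deficient mice, a difference of -0.20. For *Aldoa* the same ratio was -0.06 in control mice but 0.16 in deficient mice, a difference of 0.22. In each case at least 1 of the ratios was close to 0.

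Among the other genes of the pathway, *Eno3*, the muscle-type enolase, had an FPKM of 574.9 and 410.2 in the control and deficient Ly6Clo libraries and of 57.9 and 216.5 in the Ly6Chi libraries, and its genotype ratio in Ly6Clo minus that in Ly6Chi monocytes was -2.37. *Pdk1*, a kinase of pyruvate dehydrogenase, had 4.57 and 1.32 in the Ly6Clo and 1.72 and 2.46 in the Ly6Chi libraries, and the difference of its ratios was -1.61. Neither difference was tested.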

How the results depend on the processing

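Of 366 values computed under alternatives, none turned a called direction, and 36 crossed a threshold, moved by over 1.5 times or changed sign without being called. The count of 3 genes at least 2-fold lower in RBP-J-deficient Ly6Clo monocytes held at 3 under every alternative run except the thresholds of the methods, where it was 0. The count of 1 gene 2-fold higher, *Hk2*, was 0 with a pseudocount of 5, with TPM, with median centring and at the thresholds of the methods, and 2 at 1.5-fold, and the log2 ratio of *Hk2* was 0.83, 0.72 and 0.98 under the first 3 of these. In Ly6Chi monocytes the count of 0 genes lower became 1 (*Slc2a1*) with a pseudocount of 0.1 and with TPM and 4 at 1.5-fold, and the count of 0 higher became 1 at 1.5-fold. For Ly6Chi over Ly6Clo, the count of 0 higher in control mice became 2 at 1.5-fold, and that of 3 in RBP-J-deficient mice 0 at the thresholds of the methods and 2 with a pseudocount of 5. Rescaling to TPM shifted the genotype ratios of abundant genes by -0.30 in Ly6Clo and -0.10 in Ly6Chi monocytes. With it the median of the 10 genes in Ly6Clo monocytes was -0.68, beside -0.22 over all expressed genes. Subtracting the GC trend changed the sign of 5 ratios of single genes, TPM of 4 and median centring of 1 (ratios from -0.34 to 0.21 in all cases), among them *Hk3*, *Gapdh*, *Gpi1*, *Aldoa* and *Ldha*. The ratio of *Slc2a1* in Ly6Clo monocytes was -1.29 with a pseudocount of 5. No paired analysis was possible because the groups hold 1 library each and share no pair of replicate numbers, and for the same reason no library could be left out. Taking the subsets as pairs would set the genotype difference against its own difference between subsets and was not run. Unknown depth leaves the error of *Slc2a1*, *Pfkl* and *Hk3*, among the lowest of the 10 genes, unmeasured.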
